A study of Malus hupehensis with 9 samples.

Results

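The genes described here had lower transcript levels in the phloem of both A1d and QZ1 than in that of WT, by a similar amount on the log scale given below. They numbered 183 of the 39951 gene identifiers in the deposited table, and 0.69% of the 26510 expressed enough to be tested (at least 1 FPKM in at least 3 libraries). FPKM counts the reads of a gene per kilobase of its length, scaled to the library total. The members were chosen on the scale log2(FPKM + 1). The highest value in A1d replicates 2 and 3 and in QZ1 had to lie at least 1 below the lowest value in WT, a distance called the gap here. The mean of A1d replicates 2 and 3 had to differ from that of QZ1 by under 0.8. A1d replicate 1 was left out of the rule, which thus used 8 of the 9 libraries. The lower levels in those 5 libraries are therefore what the rule selected, and they are given as a description with no test.

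All libraries were polyadenylated RNA of phloem, the bark tissue that carries sugars and signals, taken at bud break from apple rootstocks, with 3 replicates of each. The wild type, WT, was the crab apple Malus hupehensis, which the sample titles call PYTC. A1d was a mutant of that species with a partial loss of response to gibberellin. QZ1, of columnar habit, came from a cross of M. hupehensis, the mother, with the columnar apple line CO (Malus × domestica), the father, so it differed from WT in its whole paternal genome. The labels do not say whether replicates came from separate trees, nor give the trees' age, and the spread between replicates may be technical. The table gives identifiers alone, without gene names, so no function is given for any gene and phloem markers could not be checked. In bulk tissue, fewer cells of a type and less RNA per cell cannot be told apart.

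As background, gibberellin is a hormone that promotes stem elongation and the release of buds from rest. It binds a soluble receptor, and the pair marks the DELLA proteins, which hold growth genes back, for destruction. Plants that respond poorly to the hormone keep their DELLA proteins and are usually short. Columnar apple trees also have short internodes, and their habit maps to a locus on chromosome 10 near which an oxoglutarate-dependent dioxygenase gene is active in the wrong tissues. The rule left out the identifiers MD10G1170000 to MD10G1199999, which surround that locus if the identifiers follow the GDDH13 apple annotation. That stretch held 219 identifiers, and 0 of them met the rest of the rule.

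Some libraries stood apart. A1d replicate 1 had 18107 genes at 0, against 7183 to 9029 in the others, so a member that is low there is reported separately. WT replicate 1 was lower than the other WT libraries for many genes: it was the lowest WT library for 51.3% of the tested genes. Library totals were 15684510 to 18022986 reads, recovered from the steps of the FPKM values, and counting intervals cover counting error only.

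**Figure D1:**
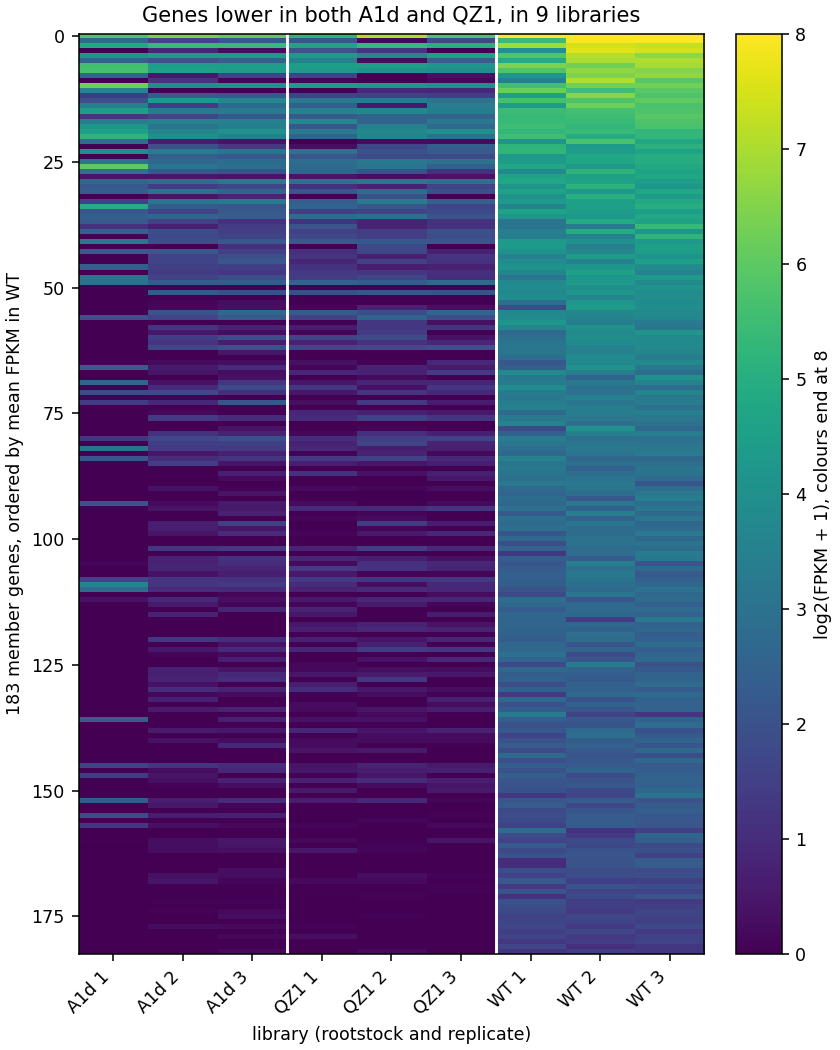
The level of each member, as log2(FPKM + 1), in 9 libraries; each line across is 1 gene, ordered by its mean FPKM in WT from the top, and the white lines part the rootstocks. All 3 WT libraries are lighter than A1d replicates 2 and 3 and QZ1, as the rule requires, while A1d replicate 1 shows a patchy column with 120 of the 183 members at 0.

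The members took a small and unequal share of each library. Their reads summed to 0.388, 0.553 and 0.583% of the library total in WT replicates 1, 2 and 3. In A1d replicates 2 and 3 they summed to 0.0619 and 0.0618%, and in QZ1 to 0.0487, 0.0631 and 0.0505%. A1d replicate 1, which the rule did not use, had 0.107%, between the other A1d libraries and WT. Every member had reads in all 3 WT libraries, whereas 61 and 47 had none in A1d replicates 2 and 3, and 64, 51 and 64 had none in QZ1 replicates 1, 2 and 3. Of all tested genes, 1.17 to 2.21% were at 0 in those 5 libraries. The median level of the members was 5.78, 6.97 and 6.94 FPKM in the WT libraries and 0.265 to 0.478 FPKM in those 5. In A1d replicate 1 the median was 0 FPKM, since 120 members were at 0, so its share came from the 63 with reads. MD02G1075200 alone held 2991 of its 16796 member reads.

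**Figure D2:**
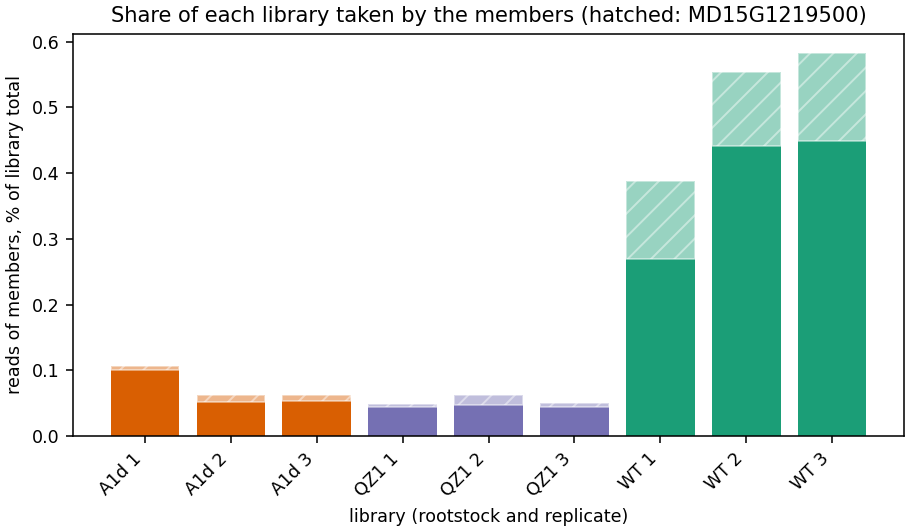
Reads of the 183 members as a percentage of the library total (bars, 1 per library), with the part taken by MD15G1219500 hatched. The WT bars reach 0.388 to 0.583%, A1d replicate 1 reaches 0.107%, and the other 5 bars end between 0.0487 and 0.0631%.

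A single gene, MD15G1219500, held much of that share. It had 983, 932 and 1119.7 FPKM in WT replicates 1, 2 and 3. In A1d it had 52.1, 79.3 and 63.8 FPKM in replicates 1, 2 and 3, and in QZ1 35.7, 132 and 51.0. All 3 WT libraries were thus several times above the highest of the others, A1d replicate 1 included, and QZ1 replicate 2 stood above the rest of the low group. Its 60959 reads in WT and 7783 in the 5 lower libraries give, after scaling by the library totals, 14.0 times as many in WT (95% exact binomial interval 13.6 to 14.3, counting error only). This gene alone took 0.118, 0.112 and 0.134% of the reads in the WT libraries.

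The next most abundant members fell into distinct patterns. MD12G1038300 had 43.3, 240.05 and 253 FPKM in WT, 5.36, 2.12 and 3.63 in A1d, and 3.53, 0.134 and 2.47 in QZ1, each in the order of the replicates. WT replicate 1 was far below the other WT libraries, yet above every library of A1d and QZ1. MD05G1144000 had 15.4, 195 and 175 FPKM in WT, 0, 0.905 and 0.199 in A1d, and 3.41, 1.30 and 0 in QZ1. The level in WT replicate 1 was again the odd one among WT. MD10G1071200 had 9.95, 133 and 59.1 FPKM in WT, 0, 1.34 and 0.0806 in A1d, and 0.0814, 0 and 0.162 in QZ1. Scaled by the totals, it had 202 times as many reads in WT as in the 5 lower libraries (95% exact binomial interval 149 to 282). A1d replicate 2 held 33 of the 41 reads in those 5 and so set this value: without it the ratio was 829.

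MD02G1163500 was of another kind, with 119, 179 and 156 FPKM in WT, 27.9, 40.7 and 41.4 in A1d, and 24.1, 40.1 and 32.3 in QZ1. The groups did not overlap, and the lower rootstocks kept a sizeable level, with 4.24 times as many reads in WT (95% exact binomial interval 4.07 to 4.41). MD05G1059300 had 56.4, 137 and 98.2 FPKM in WT, 16.7, 18.9 and 18.6 in A1d, and 18.9, 12.1 and 22.6 in QZ1. The 6 libraries of A1d and QZ1 ran from 12.1 to 22.6 FPKM here, and those of WT from 56.4 to 137. MD13G1107100, with 84.5, 78.4 and 119 FPKM in WT, had 47.1, 20.7 and 21.6 in A1d and 21.5, 21.4 and 17.0 in QZ1. A1d replicate 1 was above the other A1d libraries for this gene, and below WT.

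MD07G1246000 showed the same picture, with 54.8, 101 and 90.5 FPKM in WT, 50.5, 22.7 and 21.1 in A1d, and 18.9, 16.1 and 14.2 in QZ1. A1d replicate 1 nearly reached the lowest WT library. MD15G1008100 had 29.1, 125 and 131 FPKM in WT, 4.67, 3.14 and 4.56 in A1d, and 10.3, 0.232 and 4.51 in QZ1. MD17G1287600 had 17.6, 86.2 and 103 FPKM in WT, 5.10, 0.431 and 2.13 in A1d, and 2.10, 0 and 0.285 in QZ1. In both, WT replicate 1 lay well under the other WT libraries, and QZ1 replicate 2 was the lowest of QZ1.

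**Figure D3:**
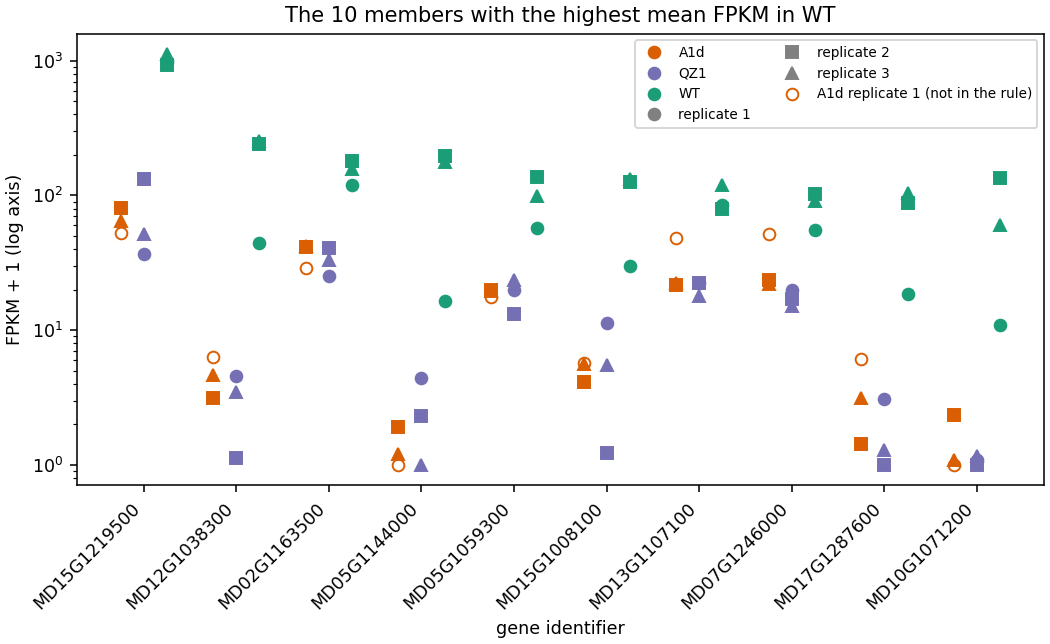
FPKM + 1 on a log axis for the 10 members with the highest mean in WT, with 1 point per library, coloured by rootstock and shaped by replicate number; the open circle is A1d replicate 1. WT replicate 1 sits far under the other WT points for MD12G1038300, MD05G1144000, MD15G1008100, MD17G1287600 and MD10G1071200, and A1d replicate 1 is near WT for MD07G1246000 (50.5 FPKM, against 54.8 in WT replicate 1).

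By what was left in the 5 lower libraries, the members formed 3 classes, drawn up after the values were seen. No read at all was found for 27 members, a further 73 had reads but stayed under 1 FPKM in each of the 5, and 83 reached at least 1 FPKM in 1 or more of them. The mean level in WT had a median of 5.02 FPKM in the first class (range 1.59 to 14.8), 4.36 in the second (1.51 to 59.2) and 15.7 in the third (3.99 to 1011.5). The genes that still reached 1 FPKM had the higher median level in WT, but the rule itself favours this. A member with a higher level in the 5 libraries needed a higher lowest WT value to meet the gap.

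Among the 27 members without a read in the 5 libraries, MD07G1261500 was the most abundant in WT, with 13.8, 14.0 and 16.6 FPKM. Those levels came from 81, 81 and 97 reads of a gene of 348 bases. MD13G1141600 rested on the most reads, 423, 345 and 440 in WT, or 13.7, 11.4 and 14.4 FPKM. With 3 reads over the 5 libraries as the floor, it was at least 718-fold higher in WT. MD17G1024300 had 8.12, 10.2 and 8.50 FPKM in WT and was 281-fold higher there on the same floor (lower limit 228-fold). Both genes were steady among the WT libraries.

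MD13G1258200 had 6.36, 13.7 and 9.59 FPKM in WT and MD11G1040900 had 10.4, 9.46 and 6.51. On the floor of 3 reads they were 127-fold and 60.1-fold higher in WT, with lower limits of 102-fold and 48.0-fold. MD07G1020100, with 10.9, 6.46 and 6.93 FPKM, was 216-fold higher in WT (lower limit 175-fold). Over the whole class the values on that floor ran from 7.73-fold to 718-fold, set by how many reads WT had (13 to 1208 per gene over its 3 libraries). All 27 genes also had no read in A1d replicate 1, the library outside the rule, where 21.3% of all tested genes were at 0.

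Of the 73 members at trace level, MD13G1054500 had the largest gap of all, 4.61 on the log2 scale. It had 71.5, 45.1 and 61.0 FPKM in WT, none in A1d replicates 2 and 3 and QZ1 replicate 1, and 0.883 in QZ1 replicates 2 and 3, which was 4 reads each. A1d replicate 1 held 42 reads, or 10.6 FPKM, and so stood between WT and the rest. MD02G1028400, with the next largest gap, varied little within each rootstock, with 23.2, 22.4 and 26.4 FPKM in WT, 0.390, 0.433 and 0.410 in A1d, and 0.396, 0.250 and 0.358 in QZ1. Each of the 6 low libraries held 14 to 24 reads, and WT had 65.0 times as many reads as the 5 libraries of the rule (95% exact binomial interval 53.4 to 79.8). MD10G1333800 had 16.9, 50.7 and 27.0 FPKM in WT and at most 0.533 in the 5 lower libraries, with 6.25 in A1d replicate 1. Over the 144 members with more than 3 reads in the 5 libraries, the median ratio of reads was 12.3. With the genes at 0 placed at their value on the floor of 3 reads, it was 16.1 over all 183. In that median, 12 genes with 1 to 3 reads entered at their raw ratio.

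The classes were cut on the level in the 5 libraries, which itself favours lower ratios in the third class. That class, with 83 members, had the lower median ratio, 6.81, against 22.7 at trace level. The trace value left out the 12 genes with 1 to 3 reads in the 5 libraries, so it understates the ratio of that class. Ratios in the third class reached up to 202. The smallest was 3.06, for MD02G1086200, which had 38.2, 40.7 and 37.9 FPKM in WT, 22.0, 11.6 and 15.8 in A1d, and 8.80, 12.3 and 15.2 in QZ1. WT varied little for this gene, and A1d replicate 1 came closest to it. Also steady in WT were MD17G1274600, with 8.38, 8.09 and 8.01 FPKM against 0.934 to 1.91 in the 5 lower libraries, MD11G1087700, with 7.80, 7.91 and 7.18 against 0.713 to 2.09, and MD07G1308700, with 4.26, 3.82 and 3.90 against 0.384 to 1.34. MD12G1139000, at trace level, had 2.80, 2.54 and 2.60 FPKM in WT and reads in only 1 of the 5, A1d replicate 3 (0.218 FPKM).

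The edge of the rule was crowded. The members just inside it were MD02G1032100, MD17G1054500, MD15G1404800, MD02G1196100 and MD05G1090800, with gaps of 1.001 to 1.005. Just outside were MD07G1067700, MD15G1374200, MD16G1172900, MD14G1089000 and MD03G1083700, with gaps of 0.991 to 0.999. Inside, MD02G1032100 had 4.56, 3.86 and 4.97 FPKM in WT and up to 1.43 in the 5. Outside, MD16G1172900 had 71.2, 57.3 and 57.9 FPKM in WT and 20.4 to 28.2 in the 5. Another 23 genes met the gap but had means of A1d and QZ1 that were 0.8 or more apart, and are not members.

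The WT libraries themselves disagreed for some members. WT replicate 1 was at least 1 log2 unit below both other WT libraries for 17 members (9.29%), against 6.26% of all tested genes, and at least 1 above both for 2 members (1.09%, against 2.24%). It was the lowest WT library for 89 members (48.6%, against 51.3% of all). Of the 20 members whose WT values spread most, 17 had WT replicate 1 lowest, a count not compared with tested genes of like spread. The 5 with the largest spread were MD05G1144000, MD10G1071200, MD12G1038300, MD09G1283000 and MD17G1287600. MD09G1283000 had 2.57, 20.4 and 14.4 FPKM in WT, at most 0.738 in the 5 lower libraries and 0 in A1d replicate 1. The median SD among WT libraries was 0.34 on the log2 scale for members and 0.30 for all tested genes. Since the rule takes the lowest WT library, WT replicate 1 decided much of the membership: without it 678 genes met the rule, the 183 among them.

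A1d replicate 1 is the only library with values that the rule did not use, and a single library allows no test. In it 154 of the 183 members (84.2%) lay at least 1 log2 unit below the lowest WT library, as did 22.6% of all tested genes. A further 18 lay below WT by less, which makes 172 below WT (94%, against 48.9% of all). Within the WT range fell 9, and 2 lay above it (1.09%, against 30.0% of all). The WT values on the other side of this comparison were chosen by the rule, and a tested gene that is low in WT cannot reach the distance, so the shares are not on an equal footing. By level in WT, 57 of 63 members under 5 FPKM were low (90.5%, against 23.5% of tested genes at that level), 49 of 57 from 5 to 10 FPKM (86% against 26.1%), and 48 of 63 at 10 FPKM or more (76.2% against 20.6%). Of these low members, 56, 43 and 21 had no read in that library and so were low by construction, as set out next.

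Much of this came from genes without a read in A1d replicate 1: these were 120 members (65.6%) and 21.3% of all tested genes. The rule kept the lowest WT value of every member at least 1 log2 unit above 0. Each of these 120 members was therefore low by construction, which does not hold for tested genes in general. How far the excess of zeros in that library raised the count of low members was not tested. Among genes with at least 1 read there, 34 of 63 members (54%) were low, against 12.1% of the 20851 tested genes with a read. By class, 27 of 27 members without a read in the 5 libraries were low in A1d replicate 1, 66 of 73 at trace level (90.4%) and 61 of 83 of the rest (73.5%). Of these, 27, 60 and 33 had no read there and so were low by construction.

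Not low in A1d replicate 1 were 29 members, all of them among the 63 with a read there. The 5 highest there relative to WT follow. MD02G1075200 had 63.7 FPKM in A1d replicate 1, against 26.8, 18.9 and 27.2 in WT, 7.72 and 6.47 in the other A1d libraries, and 5.59, 7.49 and 4.35 in QZ1. MD02G1052300 had 11.0 FPKM in A1d replicate 1, against 4.16, 6.36 and 5.51 in WT, and 0.226 to 1.52 in the 5 lower libraries. These were the members above WT in that library. MD07G1246200 had 74.2 FPKM there, within the WT range of 46.9 to 77.1, and 14.9 to 19.3 in the 5. MD15G1179000 had 29.9 FPKM, within 11.2 to 32.4, and 2.13 to 4.96 in the 5, and MD03G1289400 had 6.09, within 3.13 to 7.02, and 0.684 to 1.003 in the 5. For these genes A1d replicate 1 went with WT rather than with the other A1d libraries.

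**Figure D4:**
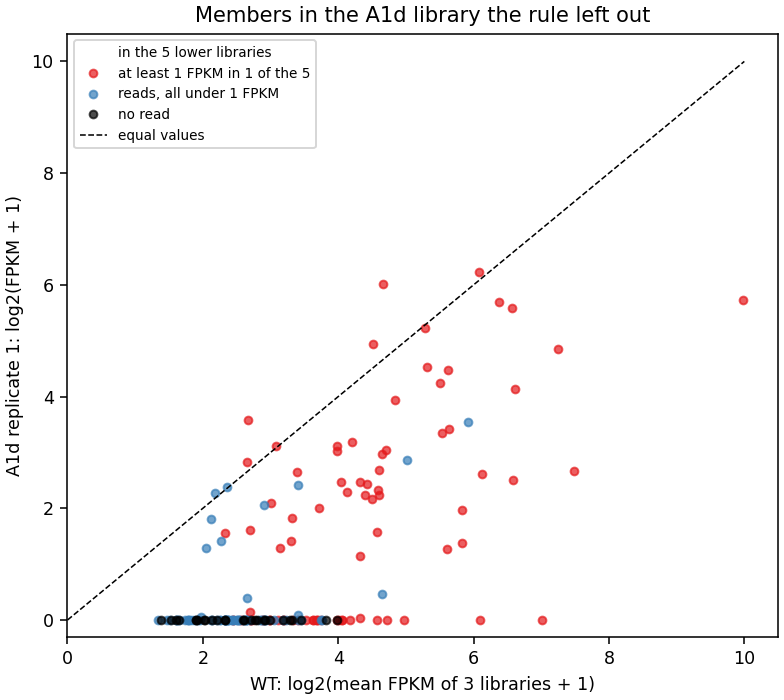
Each point is a member, placed by its mean level in WT (horizontal, log2) and its level in A1d replicate 1 (vertical, log2), and coloured by what was left in the 5 lower libraries; the dashed line marks equal values. Nearly all points lie under the line, 120 of them at 0, and all 27 genes with no read in the 5 libraries lie at 0.

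Across the whole table, limma with Benjamini-Hochberg adjustment over all tested genes called 156 of the 183 members lower in A1d than in WT at an adjusted p under 0.05, where 1.67% of all tested genes were called lower. It called 176 lower in QZ1 than in WT, where 5.19% of all were. In both comparisons 155 were called, against 1.12% of all tested genes. The rule used these contrasts, so the counts only describe it, and both comparisons share the 3 WT libraries. The median limma log2 fold change of the members was -2.15 in A1d and -2.23 in QZ1, beside -0.16 and -0.10 for all tested genes. That scale understates the change of genes near 0. Of the 27 members not called in A1d, 20 were among the 29 that were not low in A1d replicate 1. Without that library 174 members were called lower in A1d, where 2.32% of all genes were, 183 in QZ1, where 13.3% were, and 174 in both, where 1.69% were.

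All members passed the filter on low values, but 122 of them would not have passed on the A1d and QZ1 libraries alone, and 91 reached 1 FPKM in none of those 6. Such a gene could enter the test only through WT. When a WT library was left out, 92 members were still tested. Of these 47, 20 and 16 were called lower in A1d without WT replicates 1, 2 and 3, where 2.15, 0.213 and 0.204% of all genes were called lower.

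Between QZ1 and A1d, limma called 0 members in either direction at an adjusted p under 0.05, where it called 2.5% of all tested genes higher in QZ1 and 1.79% lower. The rule bounded this difference, so the count again follows from the choice. Voom on the recovered reads, another limma method, called 2 members, where it called 2.24% of all. In the first limma fit, on log2(FPKM + 1), 14 members (7.65%, against 20.3% of all tested genes) had an unadjusted p under 0.05. The mean of A1d replicates 2 and 3 was above that of QZ1 for 101 members (55.2%, against 51.5% of all), with a median difference of 0.06 on the log2 scale. Reads were absent from all QZ1 libraries for 35 members and from A1d replicates 2 and 3 for 42, with 27 in both. Thus 8 members had reads in A1d replicates 2 or 3 and none in QZ1, and 15 the reverse. They met the bound because the added 1 shrinks differences near 0. MD02G1075900 was among the members with a wide difference, at 2.15 and 2.90 FPKM in A1d replicates 2 and 3 and 1.29, 0.639 and 1.35 in QZ1.

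As a group, the members differed from all tested genes in 2 features that the rule did not name. They tended to be shorter, though not every member was: the median length recovered from the FPKM steps was 1002 bases (quartiles 550.5 and 1748.5), against 1535 for all tested genes (1007 and 2216). The 140 genes that met the mirrored rule, higher in both A1d and QZ1, had a median of 1275.5 bases. Genes under 500 bases were 20.8% of the members, 12.1% of the mirrored genes and 5.82% of all tested genes. By class, the median was 349 bases for members without a read in the 5 libraries, 1049 at trace level and 1108 in the third class. A short gene gives fewer reads at the same FPKM, so its zeros and its spread carry more counting error. What part this has in the length difference was not tested.

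Members also lay near each other more often than other tested genes lay near a member, though most members did not. The identifiers have the form of the GDDH13 annotation, where their digits give the chromosome and the order along it, although the table does not state this. Within 5 places of another member in that order were 40 of the 183 members (21.9%), whereas 3.97% of the 26327 other tested genes lay as near to a member. The mirrored genes were alike in this, with 30 of 140 (21.4%) near another of their kind. In 10 cases 2 members were direct neighbours in the table. Neighbouring genes can be copies of each other, and how reads shared by copies or by overlapping genes were counted is not known, so single values in these groups are uncertain.

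The closest groups were 3 runs of 3 members within 10 successive identifiers. In the run on chromosome 10, MD10G1333800 is given above, MD10G1333900 had 15.4, 33.1 and 19.6 FPKM in WT, 0, 0.332 and 0.766 in A1d, and 0, 2.96 and 0 in QZ1, and MD10G1334500 had 4.34, 16.1 and 8.35 in WT, 4.35, 0.496 and 0.981 in A1d, and 0.0707, 0.703 and 0.492 in QZ1. WT replicate 2 was the highest library for all 3 genes. The run lies outside the stretch left out around the columnar locus, by its identifiers. The genes were of 316, 507 and 792 bases.

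In the run on chromosome 2, MD02G1075900 had 10.2, 20.6 and 16.3 FPKM in WT and MD02G1076000 had 11.7, 22.7 and 10.8. Both had no read in A1d replicate 1, whereas their neighbour MD02G1075200 reached its highest level of all libraries there. In the run on chromosome 8, MD08G1077900 had 4.31, 2.55 and 4.58 FPKM in WT, MD08G1078000 had 3.03, 4.91 and 4.66, and MD08G1078200 had 5.53, 5.39 and 4.67. None of the 3 exceeded 0.733 FPKM in the 5 lower libraries, and A1d replicate 1 had 1.67 FPKM of the first and no read of the others.

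By chromosome, members were spread unevenly. Chromosome 17 held 16 of its 1417 tested genes (1.13%), chromosome 7 held 17 of 1568 (1.08%) and chromosome 11 held 17 of 1582 (1.07%). Chromosome 6 held 1 of 1240 (0.0806%), and chromosome 10 held 7 of 1690 (0.414%), beside 0.69% of all tested genes. These shares carry no test, since neighbours are counted as separate genes.

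**Figure D5:**
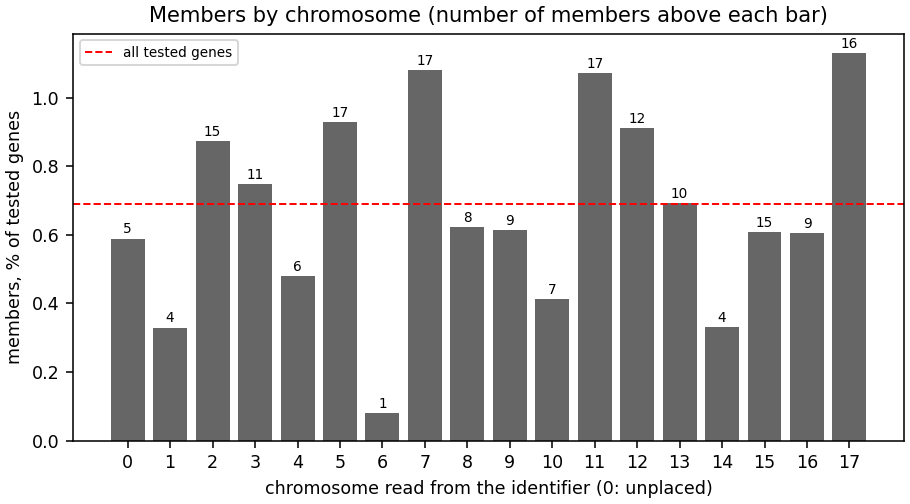
Members as a percentage of the tested genes of each chromosome, as read from the identifiers (0 stands for identifiers not placed on a chromosome), with the number of members above each bar and the share over all tested genes as the dashed line. Chromosomes 17, 7 and 11 stand highest, at 1.07 to 1.13%, and chromosome 6 lowest, at 0.0806%.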

How the data were processed

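The authors deposited 1 table of FPKM for 39951 gene identifiers with 1 column per library; the unit is that of the file's name. Per the labels' protocols, a mirVana kit served for RNA extraction and a TruSeq Stranded mRNA kit for the libraries. Trimmomatic is named in the submitters' processing notes; no aligner, counter, build or annotation is given in the sources used. All columns were matched to samples by name.

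Whole reads, totals and lengths were recovered from the FPKM steps. All 37548 genes above 0 came out whole within 0.01 reads, and reads summed to 99.92 to 99.955% of the totals. A length is the smallest that gives whole reads, so a gene with very few reads may be longer.

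Members and lists were chosen with earlier results of these data known. Levels were analysed as log2(FPKM + 1) in Python 3.11.15 (numpy 2.4.6, pandas 2.3.3, scipy 1.17.1, matplotlib 3.10.9) and fitted with limma 3.58.1 in R 4.3.3 on all 9 libraries, with an intensity trend and Benjamini-Hochberg adjustment over 26510 genes. The steps were tested on simulated data. Genes were named by rule: the 10 highest in WT, the 10 largest gaps, the 5 nearest the edge on each side, the 5 highest in WT without a read in the lower libraries, runs of members, the 5 highest in A1d replicate 1 relative to WT, and the 5 largest and 5 smallest spreads in WT. The gene lists and cell type markers planned by name could not be used, since no table pairs identifiers with names. Same-numbered libraries did not pair (see the closing section).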

Additional observations from a re-analysis of the deposited data

How the results depend on the processing

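By the rule 332 genes qualified with a pseudocount of 0.1, 129 of the 183 among them, 541 with a gap of 0.5, 76 with a gap of 1.5 and 90 with a minimum of 5 FPKM in 3 libraries. Leaving out 1 library at a time gave 183 to 678, the highest without WT replicate 1, and leaving out that library with A1d replicate 1 gave 678. With A1d replicate 1 among the lower libraries 157 genes qualified, 150 of them members. Other scalings gave 161 to 230. Members low in A1d replicate 1 numbered 294 of 332 with a pseudocount of 0.1, 69 of 90 with a minimum of 5 FPKM, and 162 to 554 when 1 library was left out, or 77.9 to 85.4% of the genes chosen.

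The share of all tested genes called in the same fit, in either direction, follows each count of members called in parentheses. In A1d against WT these were 65 of the 90 tested with a minimum of 5 FPKM (2.37%), 63 with only the 6 libraries compared (0.845%), 100 with a pseudocount of 0.1 (2.04%), 82 with voom (1.39%), and 80 of the 83 tested without A1d replicate 1 and WT replicate 1 (14.3%). They were 16 to 174 when 1 library was left out (0.619 to 4.86%). In QZ1 against WT they were 82 of 90 with the minimum of 5 FPKM (9.53%), 83 of 83 without both libraries (34.4%), and 47 to 183 when 1 was left out (2.73 to 24.4%). The lowest counts, 16 and 47, came without WT replicate 3. The lowest shares, 0.619 and 2.73%, came without WT replicate 2 and QZ1 replicate 3. Leaving out a WT library left 92 members tested, and leaving out any other library left 183. The cause of the low counts was not tested further. In QZ1 against A1d the members called were 2 with library weights (15.8%), 3 with a pseudocount of 0.1 (2.76%), 2 with voom (2.24%), and 0 to 0 when 1 library was left out (0.519 to 5.97%).

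Same-numbered libraries did not deviate together, with correlations of deviations from -0.18 to 0.04, so they share only a number. With the replicate number as a block, 124, 172 and 0 members were called in the 3 comparisons, beside 1.58, 7.42 and 2.18% of all tested genes. For the 42 members named by rule, 196 of 1554 refitted fold changes lost their call and 51 gained one; their sign was all but fixed by the rule. Leaving out both doubted libraries, and leaving lower libraries out of the ratios of reads, were chosen after the data were examined.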
